A study of Mus musculus with 6 samples.

Results

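Antisense and gene-overlapping long noncoding RNAs (lncRNAs) are transcribed across, inside or head to head with a protein-coding gene. The transcripts described here are the rows of an assembled liver transcriptome that Ensembl classes as antisense, sense_intronic, sense_overlapping or bidirectional_promoter_lncRNA, without Airn and Kcnq1ot1. They number 2710 rows from 2528 genes, of 68997 rows in all. Antisense genes gave 2366 of these rows, sense_intronic genes 264, bidirectional_promoter_lncRNA genes 55 and sense_overlapping genes 25.

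Livers came from wild-type C57BL/6 mice aged 10 weeks on NCD, 3 treated with Ad-MAFG, an adenovirus that expresses Mafg cDNA, and 3 with Ad-CMV, the empty virus. Every mouse had therefore received an adenovirus, and by the study's methods the CMV promoter drove the cDNA, so that expression was not limited to hepatocytes by the promoter. MAFG is a small MAF transcription factor that lacks a transactivation domain and binds DNA with a partner protein. Total RNA was depleted of ribosomal RNA and sequenced after strand-specific library preparation. Each row held 1 FPKM value (fragments scaled to transcript length and library size) per group, the authors' value over the mice of that group. No difference below therefore has a replicate check or a test, and depth per mouse is unknown. Each pooled value combines the separate libraries of 3 mice. The Mafg transcript was not analysed here.

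An antisense lncRNA is made from the strand opposite to its coding neighbour, and where exons of both overlap, the RNAs are complementary to each other. Such RNAs are known to act in several ways, among them by changing chromatin at the shared locus, by collision of polymerases or by pairing with the coding RNA, and many have no known role. A bidirectional promoter gives a lncRNA and a coding RNA from starts that lie close together on opposite strands. A sense_intronic transcript lies in an intron of the coding gene on the same strand.

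The complementarity is visible in the exons. The stretches below were read 5′ to 3′ from GENCODE transcripts (GRCm38) of the antisense RNAs with the highest levels, or of those whose coding partner differed with them, and capitals mark bases that lie opposite coding sequence of the partner.
Gm10680 opposite Apoa4, chr9:46243021-46243140, minus strand: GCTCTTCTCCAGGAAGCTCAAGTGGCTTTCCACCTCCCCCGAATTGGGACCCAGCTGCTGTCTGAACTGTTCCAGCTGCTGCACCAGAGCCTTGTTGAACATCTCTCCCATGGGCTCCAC
Gm16567 opposite C1s1, chr6:124530947-124531066, plus strand: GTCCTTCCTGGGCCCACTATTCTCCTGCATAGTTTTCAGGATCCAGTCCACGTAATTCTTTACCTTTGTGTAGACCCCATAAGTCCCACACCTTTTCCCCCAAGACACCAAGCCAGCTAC
RP24-285L8.3 opposite Bnip3, chr7:138894417-138894496, plus strand: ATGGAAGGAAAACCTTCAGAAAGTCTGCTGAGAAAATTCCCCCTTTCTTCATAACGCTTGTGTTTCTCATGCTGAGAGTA
Sardhos opposite Sardh, chr2:27189522-27189561, plus strand: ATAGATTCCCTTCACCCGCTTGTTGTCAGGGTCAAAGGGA
B430119L08Rik opposite Serpina1c, chr12:103895965-103896084, plus strand: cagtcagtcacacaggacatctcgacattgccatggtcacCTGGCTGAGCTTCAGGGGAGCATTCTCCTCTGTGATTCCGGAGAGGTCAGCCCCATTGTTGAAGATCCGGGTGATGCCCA
Gm16143 opposite Pbld2, chr10:63056700-63056819, minus strand: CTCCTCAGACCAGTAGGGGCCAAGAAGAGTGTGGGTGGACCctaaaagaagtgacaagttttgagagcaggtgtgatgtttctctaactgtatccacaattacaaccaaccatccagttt
Gm11695 opposite Slc16a5, chr11:115462728-115462807, minus strand: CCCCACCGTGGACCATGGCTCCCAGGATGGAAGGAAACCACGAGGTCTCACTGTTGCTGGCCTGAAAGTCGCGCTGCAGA
Gm10680, Gm16567, RP24-285L8.3, Sardhos and Gm11695 are shown in capitals throughout because the whole stretch faces coding exons, whereas the stretches of B430119L08Rik and Gm16143 cross the edge of one. Of the 702 exon bases of Gm10680, 632 lay opposite Apoa4 exons, and all 576 exon bases of Gm16567 lay opposite C1s1 exons. In RP24-285L8.3, 504 of 519 exon bases faced Bnip3 exons. B430119L08Rik shared less, with 429 of 1994 exon bases opposite Serpina1c.

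**Figure D1:**
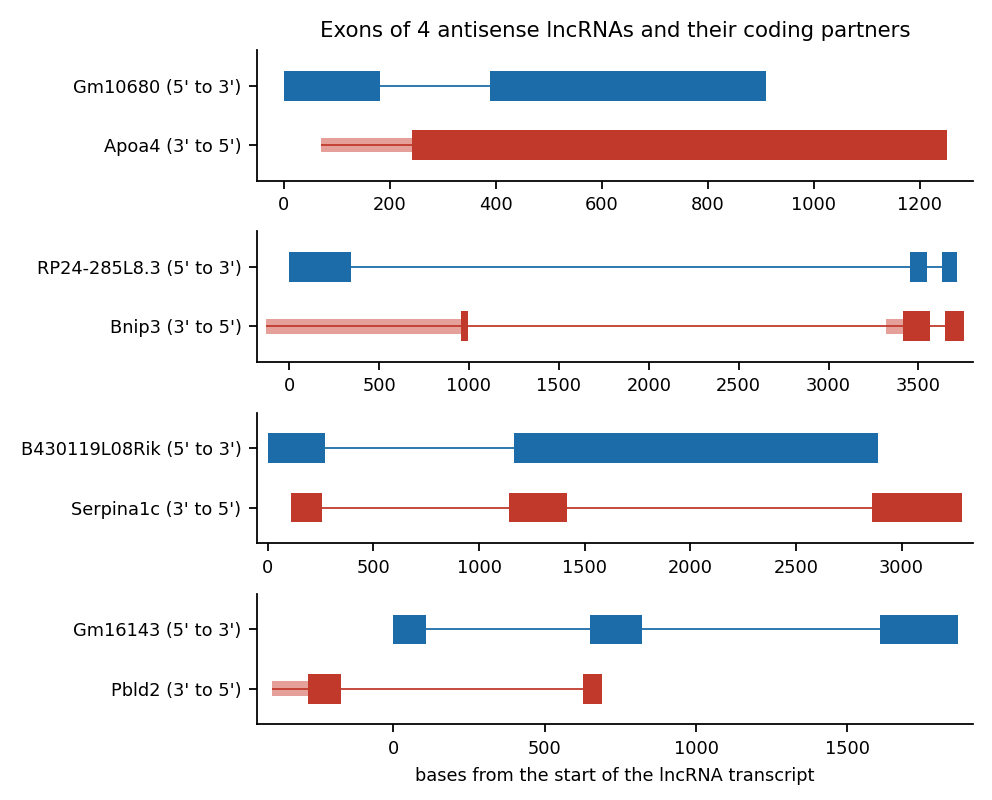
Exons of 4 antisense lncRNAs (blue) drawn to scale above those of their coding partners (red, with untranslated parts thin and pale), in bases from the start of the lncRNA transcript. Partner exons within reach of the lncRNA are drawn, merged over the partner's transcripts. Gm10680 and RP24-285L8.3 lie almost wholly opposite partner exons, while B430119L08Rik and Gm16143 meet them in part.

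How reads were placed on strands bears on every value here. The strand of each assembled row was read from the order of the locus numbers, and 98 of the 561 expressed lncRNA rows (17.5%) lay on the strand opposite to their gene. Among expressed protein-coding rows it was 10239 of 13964 (73.3%). Actb, cytoskeletal actin, was listed at 142 FPKM in Ad-CMV and 177 in Ad-MAFG on the strand opposite to its gene, and at 0.0557 FPKM or less on its own. Alb, albumin, was listed on its own strand at 4310 and 5603 FPKM. In 1831 coding genes with an expressed row on both strands, the log2 ratios of those rows had r = 0.74 and rho = 0.69 across genes, which share libraries and are not replicates. The library-strand setting of the assembly was not given in the sources used here. RNA of an antisense gene and RNA of its coding partner assigned to the other strand can therefore not be told apart where their exons overlap, and each lncRNA value below is the value of the row that carries its name.

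Most of the lncRNA rows were at or near 0 in liver. In both groups 939 rows were listed at 0, and a further 328 were at 0 in 1 group. A row was called expressed when the mean of its Ad-CMV and Ad-MAFG values was at least 0.5 FPKM, which left 561 rows (20.7%) from 514 genes. Of these, 535 were antisense, 18 bidirectional, 7 sense_intronic and 1 sense_overlapping. The median level of the expressed rows was 1.26 FPKM, 33 rows reached 10 FPKM and 5 reached 100 FPKM, all antisense. A single gene could hold several rows: 28 genes had more than 1 expressed row, and Gm26740 had 9.

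Between the groups, log2 ratios were taken of Ad-MAFG over Ad-CMV after adding 0.1 FPKM to each value, which understates the difference of low rows. The median over the 561 rows was -0.10, with quartiles at -0.40 and 0.27, against -0.03 over all 18504 expressed rows of the table. At least 2-fold higher in Ad-MAFG were 17 rows (3.03%), where the share over all expressed rows was 5.13%. At least 2-fold lower were 38 rows (6.77%) from 34 genes, where that share was 5.33%. Both shares of the lncRNAs were thus within 3 percentage points of the background. Rows below 0 made up 58.1% of the lncRNAs and 53.5% of all rows, and 408 lncRNA rows stayed within 1.5-fold. By strand, the 463 rows on the strand of their gene held 11 higher (2.38%) and 24 lower (5.18%), where all expressed rows of that kind had 4.51% and 6.42%. The 98 rows on the opposite strand, from 64 genes, held 6 higher (6.12%) and 14 lower (14.3%), where all such rows, most of them protein-coding, had 4.44% and 3.53%. For protein-coding rows the shares were 4.31% higher and 4% lower, and for lincRNA rows, which stand apart from coding genes, 5.15% higher and 9.21% lower.

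The 8 rows with the highest levels were all antisense, and all but Gm37401 had a coding partner. Gm10680 (chr9:46242621-46243529, minus strand) lies opposite Apoa4, which encodes an apolipoprotein of triglyceride-rich particles and HDL. It was listed at 325 FPKM in Ad-CMV and 570 in Ad-MAFG, a log2 ratio of 0.81, and Apoa4 at 48.1 and 87.2 FPKM, a log2 ratio of 0.86. Both were higher in Ad-MAFG by nearly the same factor, short of 2-fold. Gm37401 (chr9:108337089-108338273, minus strand), which overlaps no coding gene of the table, was listed at 146 and 151 FPKM. Its nearest coding gene, 630 bases away on the other strand, is Gpx1, the cytosolic glutathione peroxidase, itself listed at 0.0124 and 0.0428 FPKM. That listing cannot be read as absence of Gpx1 RNA.

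The next rows in order of level were lower in Ad-MAFG. Sardhos (chr2:27189382-27234710) faces Sardh, a mitochondrial enzyme that oxidizes sarcosine to glycine, and was listed at 166 FPKM in Ad-CMV and 82.3 in Ad-MAFG. Sardh had 2.82 and 1.42 FPKM, so that log2 ratios were -1.01 for the lncRNA and -0.94 for the enzyme. That Sardh row was assembled on the strand of Sardhos, and on its own strand Sardh was under 0.001 FPKM. RP24-285L8.3 (Gm45507 in GENCODE M21, chr7:138890964-138894675) had 167 and 70.2 FPKM, a log2 ratio of -1.25, and its partner Bnip3, a mitochondrial outer membrane protein that promotes mitophagy, 14.8 and 6.59 FPKM. B430119L08Rik (chr12:103895897-103898784) had 86.6 and 30.4 FPKM, a log2 ratio of -1.51. Its partner Serpina1c, one of the mouse alpha-1-antitrypsin genes, had 396 and 144 FPKM and a log2 ratio of -1.46. The Serpina1 genes are near copies of each other, and how reads were split among them is uncertain.

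Gm16567 (chr6:124530911-124542310) departed from its partner in size. It was listed at 142 and 76.0 FPKM, a log2 ratio of -0.90, whereas C1s1, a serine protease of the first complement component, was listed at 5.201 and 0.172 FPKM, a log2 ratio of -4.28. Both rows were lower in Ad-MAFG, the coding row by far more. That C1s1 row lay on the strand of C1s1, and all exon bases of Gm16567 face C1s1 exons. Whether the row holds all of the C1s1 RNA was not tested. Gm26716 was listed at 36.0 and 42.0 FPKM and Gm16277 at 38.8 and 24.5 FPKM. Their partners Sdc3, a cell-surface proteoglycan, and Gfra1, a co-receptor for glial cell line-derived neurotrophic factor, had log2 ratios of 0.25 and -0.15, the latter from a row on the strand of Gm16277.

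Across the 33 rows at 10 FPKM or more, 0 were at least 2-fold higher and 6 (18.2%) at least 2-fold lower, with a median log2 ratio of -0.41. Over all 1485 rows of the table at that level the shares were 4.38% and 10.7% and the median -0.19. Beside Sardhos, RP24-285L8.3 and B430119L08Rik, the lower rows were Gm42413, RP23-290O4.2 and Gm15883. Gm42413 faces Qdpr, which regenerates tetrahydrobiopterin, and was listed at 40.2 and 19.8 FPKM. RP23-290O4.2 lies opposite Ahcy, the hydrolase of S-adenosylhomocysteine, and had 29.5 and 12.6 FPKM against 27.6 and 15.04 FPKM for Ahcy. Gm15883, opposite the cytochrome P450 gene Cyp2f2, had 16.9 and 8.004 FPKM. Short of 2-fold, Gm15622 had 27.0 and 14.6 FPKM, and its partner Bhmt, which remethylates homocysteine with betaine, had 664 and 286 FPKM.

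Some of these high rows faced a coding gene with almost no signal under its own name. The partners counted were the 27 of own-strand rows at 10 FPKM or more with exons over partner exons. Of these, 13 (48.1%) had no expressed row, and 13 (48.1%) had one on their own strand. Over all coding genes of the table, whether or not liver uses them, the shares were 59.6% and 17.5%. Adh1, the main hepatic alcohol dehydrogenase, was listed at under 0.001 FPKM in Ad-CMV and 0.393 in Ad-MAFG while Gm16559, antisense to it, had 13.13 and 13.12 FPKM. Alas1, the first enzyme of heme synthesis, and Qdpr were each under 0.001 FPKM in both groups, against 14.2 and 15.7 FPKM for 4930500F10Rik, the lncRNA opposite Alas1. Maf, a large MAF transcription factor, was at 0.221 and 0.217 FPKM, and Gm15655 opposite it at 8.78 and 12.9 FPKM. Adh1 and Alas1 are genes that liver uses, so such a listing cannot be read as absence of their RNA. Over the 302 partners of all own-strand rows with such exon overlap, 29.1% had an expressed row on the opposite strand, against 31.6% of the 21255 coding genes of the table. At 10 FPKM or more it was 4 of the 27 partners (14.8%). Opposite-strand rows were thus rarer than own-strand rows among these partners (4 against 13 genes). Over all coding genes they were more frequent (6713 against 3709 genes), and the cause was not tested.

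Exon overlap went with level among the lncRNAs. The 315 rows with exons opposite partner exons had a median of 1.52 FPKM and held 27 of the rows at 10 FPKM or more. The 205 rows whose exons met no partner exon had a median of 0.957 FPKM and held 4 of them. Median log2 ratios of these rows were -0.05 and -0.07, and the shares at least 2-fold lower 4.76% and 7.32%, against 5.33% of all expressed rows.

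The largest relative differences were found among rows of low level. Gm35986 (chr3:129527467-129532388, minus strand) had 1.37 FPKM in Ad-CMV and 0.131 in Ad-MAFG, a log2 ratio of -2.67. Its partner Elovl6, which elongates palmitate, had 9.81 FPKM in both groups, in a row on the strand of Gm35986. No exon of Gm35986 meets an Elovl6 exon.

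Chrna1os is named for Chrna1, the alpha subunit of the muscle acetylcholine receptor, which lies 4512 bases away on the other strand and was listed at 0 in both groups. The own-strand row of Chrna1os (chr2:73584850-73589208) had 4.44 and 0.679 FPKM, a log2 ratio of -2.54. Its other rows, assembled on the opposite strand, had 1.75 and 0.469 FPKM and 0.862 and 0.446 FPKM. All 3 rows were lower in Ad-MAFG.

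Gm12909 (chr4:62088288-62090524) lies 946 bases from Mup3, a major urinary protein gene whose product carries pheromones. Its rows on the opposite strand, which is the strand of Mup3, had 8.93 and 1.90 FPKM, a log2 ratio of -2.18, and 4.18 and 0.928 FPKM, a log2 ratio of -2.06. Its own-strand row was listed at 1.01 FPKM in Ad-CMV and at 0 in Ad-MAFG. Mup3 was listed at 1860 and 73.4 FPKM, a log2 ratio of -4.66. Mup genes are near-identical copies, so the assignment of reads to each is uncertain. 4930480G23Rik (chr4:19979445-19985388) also had 3 expressed rows, with log2 ratios of -1.73, -0.98 and -0.61. Ttpa, the liver protein that loads vitamin E for export, was its nearest coding gene at 22550 bases, with 4.27 and 1.93 FPKM.

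Hopxos (chr5:77094532-77102303) had 3.98 and 0.955 FPKM, a log2 ratio of -1.95. Its partner Hopx, a homeodomain protein without DNA binding, was below the expression limit at 0.288 and 0.0153 FPKM, in a row on the strand of Hopxos. Gm44877 had 1.22 and 0.313 FPKM, and its partner Tmem86b, whose human counterpart cleaves lysoplasmalogen, had 4.46 and 1.78 FPKM. Among the 10 rows with the largest log2 ratios below 0 that had signal in both groups and at least 1 FPKM in 1 of them, Gm14097 had the highest level, with 14.0 and 4.64 FPKM on the strand opposite to its gene, whereas its own-strand row had 0.600 and 0.584 FPKM. 5430402O13Rik, also in that group, had 1.497 and 0.423 FPKM.

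In the other direction, Gm17099 (chr9:45172997-45175161) led, with 0.668 FPKM in Ad-CMV and 3.36 in Ad-MAFG, a log2 ratio of 2.17. All of its 412 exon bases face exons of Tmprss4, a membrane-bound serine protease of epithelia, which had 0.924 and 5.28 FPKM and a log2 ratio of 2.39. That Tmprss4 row was assembled on the strand of Gm17099, so the values of both names come from 1 strand. On its own strand Tmprss4 was listed at 0.0123 and 0.0497 FPKM.

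Gm11695 (chr11:115462045-115463454) had 0.660 and 2.25 FPKM, a log2 ratio of 1.63. Slc16a5, a transporter of the monocarboxylate family, had 0.628 and 1.46 FPKM and a log2 ratio of 1.10. Gm15512, with 0.364 and 1.18 FPKM, faces Arhgap22, a GTPase-activating protein for Rac, and Gm16144, with 0.316 and 1.00 FPKM, faces Anxa2, a calcium-dependent membrane-binding protein. Bach2os had 3 expressed rows on the strand opposite to its gene, all higher in Ad-MAFG, the first at 1.28 and 3.04 FPKM with log2 ratios of 1.19, 0.83 and 0.60. Bach2, a transcription factor that pairs with small MAF proteins, was itself at 0.110 FPKM in Ad-CMV and under 0.001 FPKM in Ad-MAFG.

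1810064F22Rik (0.214 and 1.05 FPKM), Gm16000 (0.514 and 1.52 FPKM), Gm26740 (1.12 and 3.01 FPKM), Gm28063 (1.09 and 2.71 FPKM) and Gm15523 (0.425 and 1.11 FPKM) completed the 10 rows with the largest log2 ratios above 0 under the same limits. The 9 rows of Gm26740 did not move as one, with log2 ratios from -0.71 to 1.35. None of the 10 rows had more than 3.36 FPKM in either group. Of the 20 rows with the largest ratios in both directions, 10 were assembled on the strand opposite to their gene, compared with 17.5% of all expressed lncRNA rows.

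**Figure D2:**
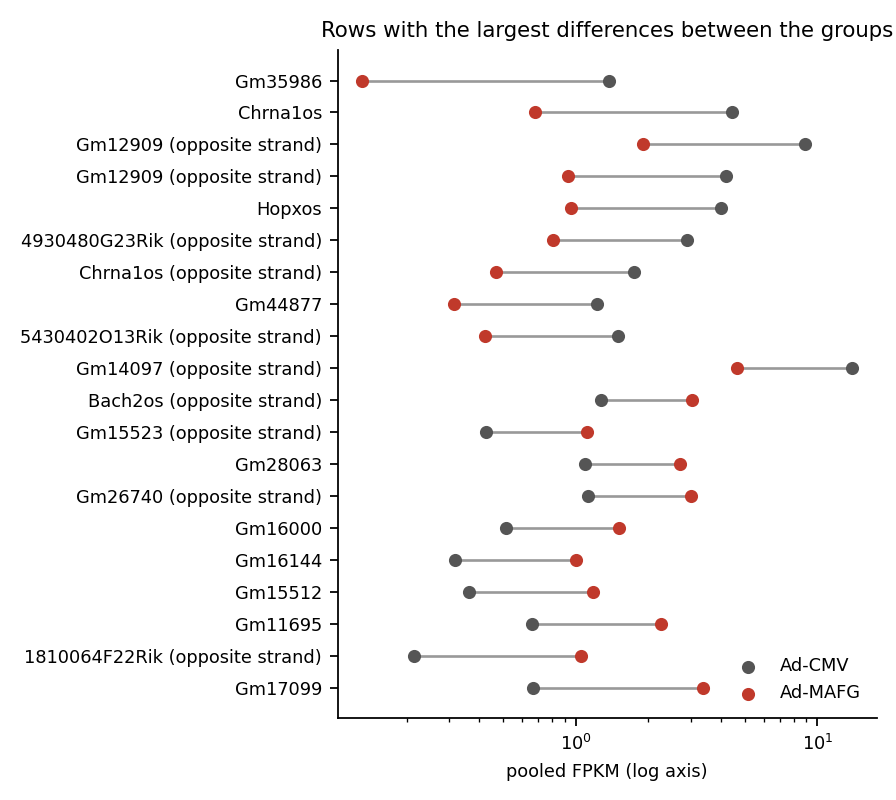
Pooled FPKM (logarithmic axis) in Ad-CMV (grey) and Ad-MAFG (red) of the 10 lncRNA rows with the largest log2 ratios below 0 (top) and the 10 with the largest above 0 (bottom), 1 line per row, among rows with signal in both groups and at least 1 FPKM in 1 of them. The lower rows reach 14.0 FPKM in Ad-CMV, whereas the higher rows stay at 3.36 FPKM or less.

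Marker lists of liver cell types differed between the groups to unlike degrees. Summed FPKM of 5 stellate cell and matrix genes was 31.2 in Ad-CMV and 105 in Ad-MAFG, with all 5 higher (log2 ratios from 0.67 to 2.56). Of 7 hepatocyte markers 5 had log2 ratios below 0, the lowest -1.27 for Apoa1, the main HDL apolipoprotein, at 1195 and 496 FPKM. Alb, at 0.38, carried their sum of 6095 and 6537 FPKM. The highest ratio, 1.72, was that of Ttr, which was below the expression limit at under 0.001 and 0.230 FPKM. Kupffer cell markers summed to 60.1 and 64.6 FPKM, with 2 of 5 log2 ratios below 0. Among them, Marco, a scavenger receptor, had 13.6 and 2.10 FPKM and Cd5l, a secreted macrophage protein, 35.3 and 50.3 FPKM. Sums for 4 endothelial markers were 32.8 and 28.6 FPKM, with 2 log2 ratios below 0, and for 3 neutrophil markers 6.07 and 9.22 FPKM. Cholangiocyte markers summed to 4.65 and 7.48 FPKM, and T and NK cell markers to 6.22 and 4.79 FPKM. For B and plasma cells the sums were 1.43 and 2.99 FPKM, and for erythroid cells 530 and 698 FPKM. Stellate, Kupffer and endothelial values all came from rows on the strand opposite to their gene. Among hepatocyte markers this held only for Cps1 and Tat. Cell types are therefore compared across unlike strand classes, and the effect of that on the values was not tested. In whole liver, fewer cells of a type and less RNA per cell cannot be told apart, and the part of cell makeup in the lncRNA values was not tested.

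The comparison with the coding partner followed from the genome annotation. A partner is the protein-coding gene of the table that overlaps the lncRNA by at least 1 base on the opposite strand (on the same strand for sense transcripts), or, for bidirectional lncRNAs, one that starts within 1000 bases or overlaps. Its value is that of its row with the highest mean. Of the 561 expressed rows 522 had a partner, and in 265 pairs (233 lncRNA genes, 225 partners) both were expressed. The lncRNA had the higher FPKM in 92 of these pairs.

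Log2 ratios of lncRNA and partner went together. Over the 265 pairs r was 0.55 and rho 0.63, as a description across pairs that share the same libraries. Both had the same sign in 202 pairs (76.2%), and in 203 pairs they lay within 0.5 of each other on the log2 scale. Both were at least 2-fold higher in 2 pairs, Gm17099 with Tmprss4 and Gm11695 with Slc16a5. Both were at least 2-fold lower in 5 pairs, while 0 pairs passed 2-fold in opposite directions. In these 265 pairs the lncRNA row was at least 2-fold higher in 8 and lower in 17. The partner was higher in 9 and lower in 15. With so few past 2-fold, the count of 0 says little by itself. By comparison, of 8602 coding genes taken with 1 row each, 4.79% were at least 2-fold higher and 4.07% at least 2-fold lower.

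The 5 pairs lower together were B430119L08Rik with Serpina1c, RP24-285L8.3 with Bnip3, Gm44877 with Tmem86b, Gm16143 with Pbld2 and BB365896 with Fam13a. Gm16143 (chr10:63055603-63057467) had 10.4 and 4.53 FPKM, and Pbld2 15.3 and 6.33 FPKM. BB365896 had 1.89 and 0.719 FPKM, and Fam13a 1.11 and 0.444 FPKM, although no exon of BB365896 meets an exon of Fam13a. That Fam13a row, like the Tmprss4 row, was assembled on the strand of the lncRNA. The other 4 pairs share exon bases on opposite strands.

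The likeness of lncRNA and partner held with and without shared exons. In 135 pairs (131 lncRNA genes) with exons over partner exons r was 0.60, and in 128 pairs (100 genes) without it was 0.49. It was 0.58 in 212 pairs whose lncRNA row lay on the strand of its gene and 0.45 in 53 pairs with the row on the opposite strand. Those 53 pairs came from 29 lncRNA genes and 29 partners, so several rows of 1 gene share a partner value. With 1 row per lncRNA gene, r was 0.58 over 233 pairs. With level, r was 0.45 for 114 pairs with lncRNAs under 1 FPKM and 0.68 for 18 pairs at 10 FPKM or more, of which 17 had the same sign. When the lncRNA row and the partner row were both required to lie on the strand of their own gene, r was 0.56 over 99 pairs. As paired here, 146 pairs had both rows assembled on 1 strand, with r = 0.58, and 119 had them on different strands, with r = 0.51.

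**Figure D3:**
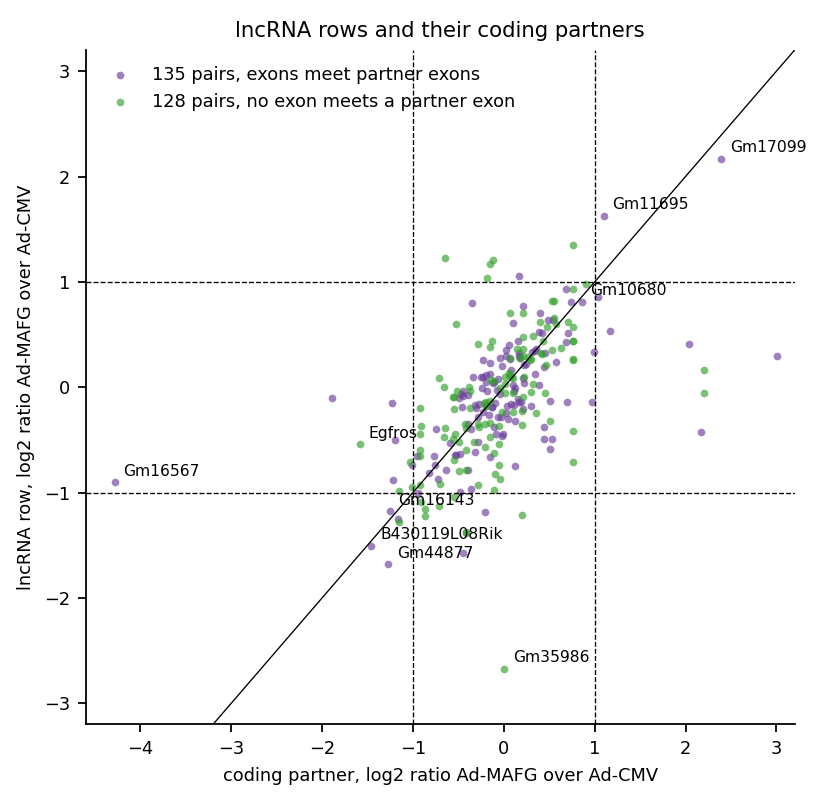
Log2 ratio (Ad-MAFG over Ad-CMV) of expressed lncRNA rows (y axis) against that of their coding partner (x axis), with 135 pairs that share exon bases in purple and 128 that do not in green. Dashed lines mark 2-fold and the solid line equal ratios. Points follow the solid line, and the upper left and lower right corners beyond 2-fold hold 0 pairs. Few pairs passed 2-fold on either axis.

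Rows were grouped by the prefix of the partner's symbol, which does not reach every gene of a function. At genes of metabolism and transport lay 23 rows from 19 genes, with a median log2 ratio of -0.52. Of these, 1 row (4.35%) was at least 2-fold higher and 4 (17.4%) at least 2-fold lower. The shares over all expressed rows were 5.13% and 5.33%. In all 15 pairs of this group with an expressed partner, which come from 11 lncRNA genes and 10 partners, lncRNA and partner had the same sign. Some of these signs rest on a ratio near 0. Elovl6 was at -0.00056 against -2.67 for Gm35986, and the Gm28836 row of lower level at -0.0004 against -0.66 for Gsta3. Gm35986, RP24-420C18.2 opposite the steroid dehydrogenase gene Hsd17b2, 4930534D22Rik opposite Cyp2u1 and Gm15883 were the 4 lower rows. 1700112D23Rik, opposite the glucose transporter gene Slc2a2, had 1.22 and 0.597 FPKM, and Slc2a2 12.3 and 7.55 FPKM. Gm28836, opposite the glutathione transferase gene Gsta3, had 16.5 and 11.8 FPKM in its higher row, and Gsta3 175 and 111 FPKM.

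Partners with the symbol prefixes taken for transcription factors (such as Hnf, Sox, Zfp and Irf), which leave out others such as Bach2, Hand2, Prox1 and Maf, had 21 rows with a median of -0.11, 1 row at least 2-fold higher, 1810064F22Rik, and 1 lower, a row of Hnf4aos. For 8 rows at partners with signalling and cell cycle prefixes the median was -0.07 and 0 rows passed 2-fold. The remaining 470 rows with a partner had a median of -0.05, with 15 higher (3.19%) and 25 lower (5.32%). Each of the 2 transcription factor rows past 2-fold made up 4.76% of its 21 rows. Over all expressed rows the shares were 5.13% higher and 5.33% lower.

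Antisense RNAs named for a coding gene (symbols ending in os or as) gave 60 expressed rows from 46 genes, with a median log2 ratio of -0.02. At least 2-fold higher were 2 of the 60 and at least 2-fold lower 5, where the shares over all expressed rows were 5.13% and 5.33%. Within 1.5-fold were 39. Egfros (chr11:16815431-16830702), antisense to the epidermal growth factor receptor gene, had 5.56 and 3.79 FPKM, a log2 ratio of -0.54, whereas Egfr had 37.2 and 12.3 FPKM, a log2 ratio of -1.58. No exon of Egfros meets an exon of Egfr. Rapgef4os3 had 4.13 and 2.30 FPKM, and Tnfsf13os 18.4 and 13.9 FPKM, both with partners under 0.001 FPKM.

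Other members of this group leaned the other way without reaching 2-fold. Sorbs2os had 4.21 and 5.65 FPKM, Prss23os 2.80 and 4.51 FPKM and Plxna4os1 1.68 and 3.04 FPKM. Maats1os had 1.88 and 2.46 FPKM. Adap2os (3.65 and 3.53 FPKM), Phtf1os (2.50 and 2.23 FPKM) and the own-strand row of Rab26os (3.15 and 3.36 FPKM) differed little.

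Of 11 listed antisense RNAs of hepatocyte transcription factors, 3 were among the genes described. Hnf4aos, which faces the gene of the nuclear receptor that maintains hepatocyte identity, had 3 expressed rows, all on the strand opposite to its gene and thus on that of Hnf4a. They had 5.86 and 3.35 FPKM, 0.927 and 0.295 FPKM, and 0.741 and 0.456 FPKM, and Hnf4a itself 121 and 90.5 FPKM in a row assembled on the strand of Hnf4aos. Prox1os, antisense to the gene of a homeobox factor of hepatoblasts, had 2.05 and 2.04 FPKM, and Hnf1aos1 stayed below the limit at 0.119 and 0.0489 FPKM. Listed Hox cluster antisense RNAs (5 of 12 present), X-inactivation and imprinting RNAs (4 of 12) and widely studied antisense RNAs (4 of 19) had 0 expressed rows.

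Bidirectional lncRNAs gave 18 expressed rows from 15 genes. Of these rows 11 lay on the strand opposite to their gene, a class in which 14.3% of all the lncRNA rows were at least 2-fold lower. Of the 18 rows, 15 (83.3%) had log2 ratios below 0, against 53.5% of all expressed rows, and the median was -0.34. At least 2-fold lower were 5 rows from 4 genes (27.8%), against 5.33%, and 1 (5.56%) was at least 2-fold higher, against 5.13%. Gm20684, which shares its promoter region with the proprotein convertase gene Pcsk6, had 3.42 and 1.40 FPKM in a row on the opposite strand and 1.62 and 0.539 FPKM in a row on its own, against 0.407 and 0.258 FPKM for Pcsk6. RP23-93F3.4, head to head with Ppp1r3b, a subunit that directs a phosphatase to glycogen, had 1.30 and 0.529 FPKM. 2310010J17Rik had 2.76 and 1.13 FPKM in a row on the opposite strand, that of Picalm. Picalm, a clathrin adaptor, had 4.53 and 5.21 FPKM in a row on the strand of 2310010J17Rik. Gm26708 had 1.64 and 0.744 FPKM, and its partner Abhd17c, a depalmitoylating enzyme, 2.35 and 1.57 FPKM.

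The higher row belonged to Gm4890, at 0.267 and 0.758 FPKM and so under that limit of 1 FPKM, whose other row had 0.692 and 0.507 FPKM. Over 12 pairs with an expressed partner, 7 had the same sign and r was -0.42, a value from few rows of low level. The 7 sense_intronic rows ranged from -0.75 (Gm43707) to 0.98 (Gm16155, inside Tmcc3), and 0 passed 2-fold. The sense_overlapping row, Gm20621, had 0.688 and 0.606 FPKM.

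**Figure D4:**
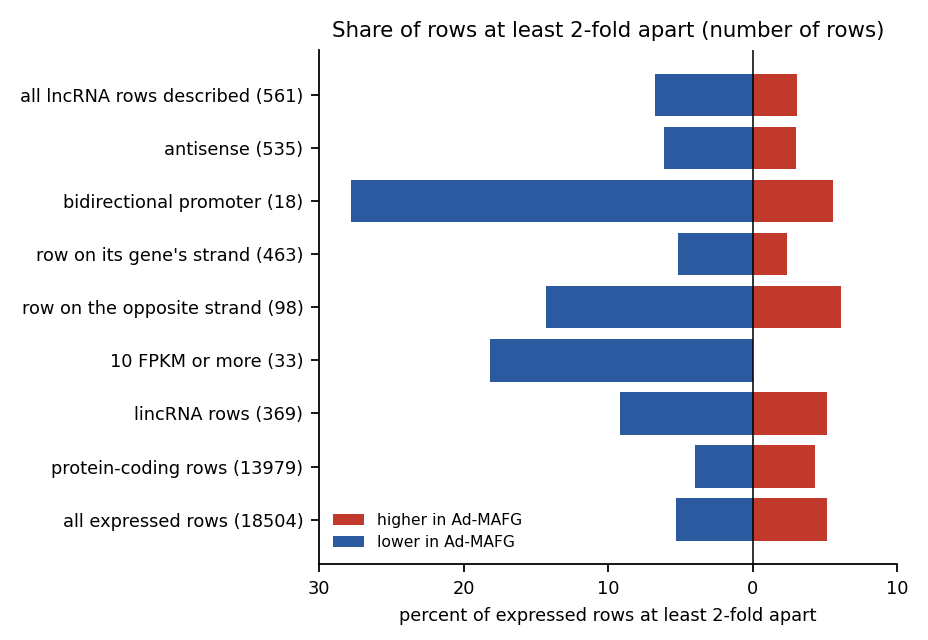
Percent of expressed rows at least 2-fold higher (red, right) or lower (blue, left) in Ad-MAFG, for groups of the lncRNA rows and for lincRNA, protein-coding and all expressed rows, with the number of rows in brackets. The lncRNA rows described here stand at 3.03% higher and 6.77% lower, near the 5.13% and 5.33% of all rows. The widest bars belong to groups of 18 and 33 rows, followed by the 98 rows on the opposite strand with 14.3% lower.

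Promoter windows of RefSeq (GRCm38.p6, from 250 bases before to 50 after the start) matched 151 of the 514 expressed lncRNA genes, with 1 window taken per gene. A motif like the MAF recognition element, TGANTCAGC on either strand, was found in 3 of these 151 windows (1.99%) and in 1.17% of 27025 windows of all genes. TGANNNNGC, a pattern looser than the core of the antioxidant response element, was in 47.7% of the lncRNA windows and 41.4% of all windows. These shares are therefore not shares of windows with that element. The half-site TGCTGA, which can overlap either pattern, was in 20.5% of the lncRNA windows and 19.1% of all windows. The 3 stretches with the first motif are shown because it is the element that MAF proteins bind, with its letters in capitals as read on the strand of the lncRNA.
4930556N13Rik, chr11:88851500-88851528, plus strand: gtctgagcaaGCTGACTCAtgcgagcacc
Gm15417, chr3:89391675-89391703, plus strand: aaatagctgcGCTGACTCAttcccgttct
Gm28857, chr1:130741444-130741472, minus strand: gctcccctatGCTGACTCAttgtctcctg
4930556N13Rik had 2.80 and 1.93 FPKM in its higher row, Gm15417 1.40 and 1.24 FPKM and Gm28857 0.524 and 0.775 FPKM, so none of the 3 passed 2-fold. Among the rows with the largest differences, windows of Chrna1os, Hopxos, Gm35986, Gm12909, Gm11695 and 1810064F22Rik held no TGANTCAGC. TGANNNNGC was found 2 times in the window of Chrna1os and 1 time each in those of Hopxos, Gm11695 and 1810064F22Rik, and TGCTGA 1 time in that of Gm12909. A match of letters is a description of the window and not a binding site.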

How the data were processed

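Liver RNA of 3 Ad-CMV and 3 Ad-MAFG mice was sequenced. By the study's methods and the submitters' processing notes, ribosomal reads were removed with Bowtie2 2.2.9, reads were aligned to mm10 (GRCm38) with STAR 2.6.0c, and transcripts were assembled and quantified with Cufflinks 2.2.1. The deposited table of 47 columns held FPKM values that the authors computed over the mice of each group, 1 per group, with gene biotypes joined from Ensembl. Its columns of fold change, test score, p, q and significance hold the authors' own comparison and were not used. Depth per mouse is unknown.

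Rows with a mean of at least 0.5 FPKM were called expressed, and log2 ratios used a pseudocount of 0.1 FPKM. No test was possible. Scripts ran in Python with pandas and were tested on simulated data. Exons came from GENCODE M21, which held 2507 of the 2528 genes, and 2 expressed genes, Gm867 and Inafm2, are protein-coding there. Named were the 10 largest ratios in each direction (at least 1 FPKM in 1 group, above 0 in both), the 8 highest levels, the 15 highest symbols built on a coding gene, pairs past 2-fold and listed genes. Nearest coding genes and other rows were singled out after their values were seen. Members and lists were chosen with earlier results of these data known. Alternatives were other pseudocounts, filters, folds, strands, partner values and centring.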

Additional observations from a re-analysis of the deposited data

How the results depend on the processing

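Counts past 2-fold moved with the settings, and the direction of the median did not turn. A pseudocount of 1 FPKM left 1 row higher, 13 lower and 4 pairs past 2-fold in the same direction, with r = 0.66 between lncRNA and partner. Without a filter on low values the 2710 rows gave 70 higher and 75 lower, a median log2 ratio of 0, 20 pairs in the same and 1 in opposite directions, and r = 0.26. A mean of at least 1 FPKM gave 8 higher, 24 lower and r = 0.67, and of at least 3 FPKM 0 higher, 11 lower, 3 pairs in the same direction and r = 0.81. Rows with the status OK gave 29 higher and 13 pairs in the same direction. Rows on the strand of their gene gave 11 higher and 24 lower, and rows on the opposite strand 6 higher, 14 lower and 0 pairs in the same direction. At 1.5-fold there were 56 higher and 97 lower rows, 36 pairs in the same and 2 in opposite directions, and at 3-fold 3 higher and 10 lower. Other filters also change the number of rows, with 332 rows at a mean of at least 1 FPKM and 116 at 3 FPKM. Counts under different filters are therefore not on 1 scale. The balance of higher and lower rows moved as well, and the cause of the moves was not tested. Lower rows outnumbered higher ones under each of these settings. The median stayed between -0.18 and 0, and 0 of 42 named log2 ratios turned sign under pseudocounts of 0.01 and 1 FPKM or centring on the median of all rows, settings for single rows that were chosen after seeing the data.

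No paired analysis was possible because each group is 1 pooled value and the labels share no replicate number, and leaving out a mouse was not run for the same reason. Depth is unknown, so no counting error is given. Rows under 1 FPKM, 229 of 561, rest on the lowest signal.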
